A study of Mus musculus with 7 samples.

Results

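The unfolded protein response was followed through 37 of the 23347 genes in a liver RNA-seq count table. The rule lists the 37 genes by symbol and uses no measured value, though the list was drawn up with earlier results of these data known, and all 37 were found in the table and passed the filter on low counts. They fall into 15 chaperones and folding enzymes of the endoplasmic reticulum (ER), 6 sensors and transcription factors, 8 target genes of the transcription factor ATF4, and 8 genes of ER-associated degradation (ERAD) and the translocon. RNA came from whole livers of male mice on a C57BL/6 background, 6 to 8 weeks old when the diet began, with 1 library per mouse. All were fed the CDAHFD, a choline-deficient, amino acid-defined diet rich in fat that brings on steatohepatitis, for 15 weeks. The 4 control mice, labelled WT, were B4galt1 flox/flox littermates, whose B4galt1 gene is flanked by recombination sites. The other 3 carry the label B4-HKO, which stands for B4galt1 hep-/- mice with the same floxed alleles together with Alb-Cre, a Cre recombinase under the albumin promoter that acts in hepatocytes. By this design other liver cells of such mice are meant to keep B4galt1, the gene of a galactosyltransferase that adds galactose to N-glycans in the Golgi.

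The ER folds secreted and membrane proteins, and the hepatocyte, which secretes most plasma proteins, has an extensive one. When unfolded proteins build up there, 3 sensors in the ER membrane signal to the nucleus. IRE1, the product of Ern1, splices Xbp1 mRNA into the form that encodes an active transcription factor. ATF6 travels to the Golgi and is cleaved into another, and both factors raise chaperone and ERAD genes. PERK, the product of Eif2ak3, phosphorylates eIF2, which lowers translation in general but raises that of Atf4 mRNA. ATF4 then turns on genes of amino acid synthesis, of the stress factor CHOP and of the phosphatase subunit that reverses the phosphorylation. Other kinases phosphorylate eIF2 in response to other stresses, so ATF4 targets are not particular to the ER.

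Library totals ran from 37838654 to 39668509 counts in flox/flox livers and from 30608271 to 34586588 in livers labelled hep-/-, and 3 counts corresponded to at most 0.0987 CPM (TMM-normalized counts scaled to the library, the unit of all levels here unless FPKM is named). The share of counts from the mitochondrial genome was 5.79% ± 1.70 (SD, n = 4) in controls and 19.7% ± 4.58 (SD, n = 3) in livers labelled hep-/-. The 37 genes took 0.533% to 0.589% of the remaining counts in flox/flox livers and 0.464% to 0.491% in the others. B4galt1 itself read 48.7, 53.0, 49.2 and 51.7 CPM in flox/flox replicates 1 to 4 and 28.4, 23.9 and 53.7 CPM in hep-/- labelled replicates 1 to 3. In CPM, replicate 3 thus lay above every control. In FPKM it lay just below them, at 11.92 FPKM against 12.19 FPKM in the lowest control. Replicates 1 and 2 read 6.474 and 6.523 FPKM, so on both scales replicate 3 was nearer the controls than they were. The B4galt1 level of replicate 3 therefore does not bear out its label, and its genotype is in doubt. Whole-gene counts from whole liver cannot show the loss of an exon in hepatocytes, so these libraries are named by their label throughout. Of 10 hepatocyte markers edgeR called none, but Apoa1 and Cps1 had an unadjusted p under 0.05 and both were called by DESeq2; the summed level of the 10 was 84010 to 124100 CPM against 97840 to 156200 CPM. Macrophage markers did differ: 7 of 12 fell in livers labelled hep-/-, and their sum was 1514 to 3434 CPM in flox/flox livers and 698.8 to 858.3 CPM in the others. In whole liver, fewer cells of a type and less RNA per cell cannot be told apart.

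Among the 37 genes, 5 were lower and 4 were higher in livers labelled hep-/-. Called genes had an adjusted p under 0.05 in edgeR's quasi-likelihood test, over all 15179 genes tested, and a log2 fold change beyond 0.58 in either direction. The lower genes were Canx, Pdia6, Dnajb9, Asns and Trib3, and the higher genes were Atf4, Ddit3, Ppp1r15a and Syvn1. Across all genes tested 7.83% were called lower and 8.0% higher, so the 4 higher genes are near the background share. All 3 livers labelled hep-/- lay below all 4 controls for 10 of the 37 genes, against 15.0% of all genes tested, and above all controls for 4, against 13.6%. Log2 fold changes were negative for 28 genes and positive for 9, with a median of -0.32 beside 0.02 over all genes tested. Asns, Canx and Syvn1 were called whichever mouse was left out. The counts of called genes fell in several such refits, as did the shares of all genes called. Without flox/flox replicate 2 there were 2 lower and 1 higher (3.16% and 2.74% of all genes). Without hep-/- labelled replicate 2 there were 2 and 2 (3.84% and 3.92%), and without flox/flox replicate 3 there were 3 and 2 (4.71% and 4.65%). Without flox/flox replicate 4 the lower genes numbered 3 (5.35%). Without hep-/- labelled replicate 3, whose B4galt1 was close to the controls, 7 were lower and 3 higher (7.51% and 6.28% of all genes). Derl1, Dnajc3, P4hb and Xbp1 were then added, and Dnajb9, Trib3 and Atf4 were lost. On log2(FPKM + 1), where the median of all genes moved from 0.02 to -0.14, the split was 8 lower and 2 higher of 35 tested. Over all genes of that fit 15.9% were lower and 5.14% higher.

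**Figure D1:**
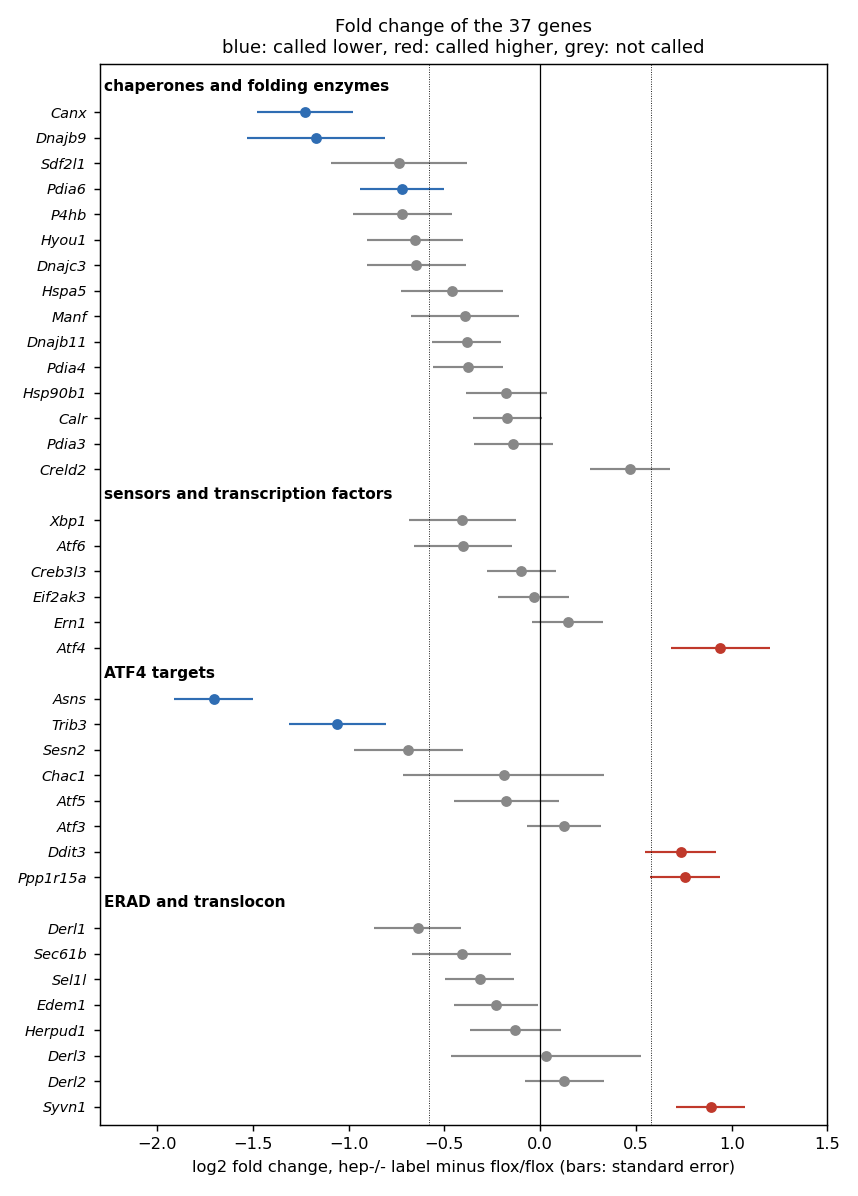
Log2 fold change of each of the 37 genes (livers labelled hep-/- minus flox/flox, horizontal axis; bars, standard error), ordered within the 4 groups; dotted lines mark 0.58 in either direction. Of the 15 chaperones 14 lie left of 0, while the ATF4 targets run from -1.71 for Asns to 0.76 for Ppp1r15a.

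Measured per length, as mean FPKM in the flox/flox livers, P4hb was the most abundant of the 37 at 449 ± 35.2 (SD, n = 4). P4hb encodes protein disulfide isomerase, which forms and rearranges disulfide bonds. It was followed by Atf5 at 187 ± 56.0, Hsp90b1 at 178.5 ± 11.6, Calr at 169 ± 22.3, Creb3l3 at 156 ± 12.2 and Hspa5 at 139 ± 42.0, and these neighbours did not differ beyond their spread. Creb3l3 encodes CREBH, a liver transcription factor that is cleaved in the Golgi as ATF6 is. At the other end stood Chac1 at 0.553 ± 0.0898 FPKM and Derl3 at 0.548 ± 0.0575 FPKM, alike within their spread and both well below Sesn2 at 2.74 ± 0.851 FPKM. The gaps between neighbours exceeded their summed SDs at P4hb over Atf5, Pdia3 over Sec61b, Sec61b over Xbp1, Pdia4 over Dnajc3 and Sesn2 over Chac1, and nowhere else in the order.

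**Figure D2:**
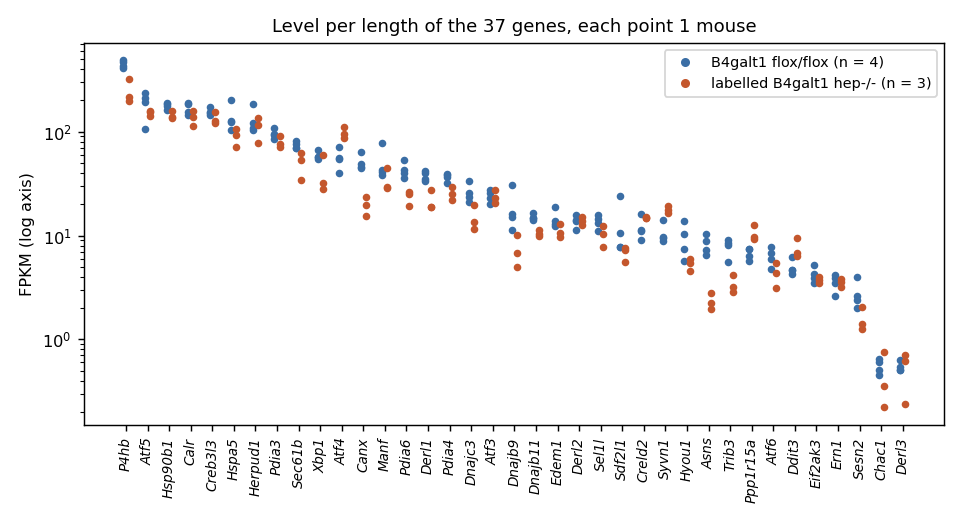
FPKM of the 37 genes in each mouse on a log axis, in the order of their mean in flox/flox livers (blue, n = 4; orange, labelled hep-/-, n = 3). Levels span from 449 FPKM for P4hb to 0.548 FPKM for Derl3, and the groups stand clear of each other for Canx, Asns, Trib3, Syvn1 and Ppp1r15a, among others.

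The chaperone genes are known for a shared promoter element, the ER stress response element (ERSE), which reads CCAAT, any 9 bases, then CCACG, and is bound by NF-Y with ATF6 or XBP1. Both strands of RefSeq promoter windows (build GRCm38.p6, 250 bases before to 50 after each start) were searched for it. Windows were matched for 33 of the 37 genes (not Hyou1, Manf, Derl1 or Atf6). The ERSE was found in 7 of 13 chaperone genes (Calr, Canx, Creld2, Dnajc3, Hsp90b1, Hspa5 and Pdia6) and in 2 of 7 ERAD and translocon genes (Syvn1 and Derl3), against 0.137% of the 27025 genes with a window. The windows shown next are those of Hspa5, the textbook target, of 2 genes that were lower, Canx and Pdia6, of Syvn1, which was higher, and of Creld2, the chaperone with a positive fold change. Each is written 5′ to 3′ along the gene with the ERSE in capitals, and in Creld2 the element reads on the opposite strand. For Canx all 250 bases before the start are given.
Hspa5, chr2:34772015-34772053, plus strand: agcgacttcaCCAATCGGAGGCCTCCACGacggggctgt
Pdia6, chr12:17266481-17266519, plus strand: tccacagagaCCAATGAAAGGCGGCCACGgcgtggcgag
Syvn1, chr19:6046522-6046560, plus strand: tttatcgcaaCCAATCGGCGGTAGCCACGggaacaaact
Creld2, chr15:88819510-88819548, plus strand: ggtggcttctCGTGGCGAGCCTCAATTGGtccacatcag
Canx, chr11:50325674-50325923, minus strand: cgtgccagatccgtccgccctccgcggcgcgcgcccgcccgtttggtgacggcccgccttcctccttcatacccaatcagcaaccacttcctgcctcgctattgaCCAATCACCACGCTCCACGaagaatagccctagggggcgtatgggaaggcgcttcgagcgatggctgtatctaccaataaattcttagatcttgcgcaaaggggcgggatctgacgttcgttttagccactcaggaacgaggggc

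Among the 9 genes with an ERSE, 6 had a negative and 3 a positive log2 fold change, 2 were called lower and 1 higher, against 7.83% and 8.0% of all genes tested, and the median was -0.18 beside 0.02. The shorter ERSE-II (ATTGG, any base, then CCACG) was found in Dnajb11 and Herpud1, against 0.0444% of all genes with a window, and neither gene was called. TGACG followed directly by TGG, a core of the XBP1 site, was in none of the 33 windows and in 0.714% of all. A match of letters is a description and not a bound site.

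Canx and Dnajb9 had the largest fold changes of the chaperones, at sizes that did not differ beyond their errors. Canx encodes calnexin, a membrane lectin that holds newly made glycoproteins while they fold. Its levels were 167.5, 211, 256 and 208 CPM in flox/flox replicates 1 to 4 and 93.0, 60.5 and 116 CPM in hep-/- labelled replicates 1 to 3. All 3 of the latter lay below all 4 of the former, and Canx was 2.34-fold lower (log2 fold change -1.23, SE 0.25, edgeR adjusted p = 0.0106). Calr, the soluble counterpart of calnexin, had a log2 fold change of -0.17 (edgeR adjusted p = 0.545), although its 252.2 to 300.1 CPM in livers labelled hep-/- also lay below the 300.5 to 333 CPM of the controls.

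Pdia6, another disulfide isomerase, read 79.8, 86.1, 107 and 81.4 CPM in flox/flox livers and 59.6, 38.1 and 63.5 CPM in livers labelled hep-/-. The groups were apart, with replicate 2 lowest (log2 fold change -0.72, SE 0.22, edgeR adjusted p = 0.0454). Pdia6 stayed called without flox/flox replicate 1 and without hep-/- labelled replicate 3 and lost the call when any other mouse was left out. P4hb, named here after its values were seen, had the same log2 fold change of -0.72 with a wider error (SE 0.26, edgeR adjusted p = 0.0787). Its levels were 1168, 1394, 1127 and 1267 CPM against 681, 523 and 1053 CPM, and it was called with DESeq2 and without hep-/- labelled replicate 3, where the log2 fold change was -1.05. Pdia3, the isomerase that works with calnexin and calreticulin on glycoproteins, had the largest adjusted p of the chaperones. It read 196.5, 249.7, 268 and 263 CPM against 264, 187 and 214 CPM, with overlapping groups (log2 fold change -0.14, edgeR adjusted p = 0.665).

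Dnajb9 encodes ERdj4, a co-chaperone that hands clients to BiP and restrains IRE1. It read 18.5, 30.2, 52.7 and 30.2 CPM in flox/flox livers and 20.8, 8.57 and 14.4 CPM in livers labelled hep-/-. The groups overlapped, since hep-/- labelled replicate 1 exceeded flox/flox replicate 1, and flox/flox replicate 3 was far above the rest. The log2 fold change of -1.17 (SE 0.36) passed narrowly (edgeR adjusted p = 0.0467) and, with mice left out in turn, remained called only without replicate 1 of either group. Without flox/flox replicate 3 it was -0.85 and not called.

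Hspa5 encodes BiP, the main chaperone of the ER and the usual gauge of the response. BiP mRNA was not called, at 284, 331, 485 and 292 CPM in flox/flox livers and 267, 174 and 318 CPM in livers labelled hep-/- (log2 fold change -0.46, SE 0.27, edgeR adjusted p = 0.251). Hsp90b1, the ER form of HSP90, read 395, 482, 477 and 556 CPM against 487, 342 and 437 CPM (log2 fold change -0.18, edgeR adjusted p = 0.595). Both genes overlapped between the groups, with replicate 2 lowest among the livers labelled hep-/-. Hsp90b1 shares 10.3% of its exonic bases with a pseudogene on the opposite strand in the GENCODE annotation, and whether counting used the strand is not given in the sources used here. Of the remaining chaperones, none of which was called, Pdia4, Dnajb11, Dnajc3, Hyou1, Sdf2l1 and Manf had log2 fold changes from -0.38 to -0.74. Creld2, an ER protein known to be induced by stress, was the one chaperone with a positive value, at 13.1, 15.4, 20.5 and 13.1 CPM against 22.9, 18.8 and 22.8 CPM (log2 fold change 0.47, edgeR adjusted p = 0.140).

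As a list, 3 of 15 chaperones were lower, against 7.83% of all genes tested, 14 had a negative log2 fold change, and the median was -0.46. Canx alone of the 15 was called without flox/flox replicate 2, 3 or 4 or without hep-/- labelled replicate 2. That is 1 gene, near the 3.16% to 5.35% of all genes called lower in those refits. Leaving out single mice moved the median between -0.67 and -0.28. For 6 of the 15 all livers labelled hep-/- lay below all controls, against 15.0% of all genes. The chaperones also moved together within each group: flox/flox replicate 3 had the highest level of its group for 13 of 15, and hep-/- labelled replicate 2 the lowest of its group for 13 of 15. The latter was also lowest for 5 of 6 sensors and transcription factors and 5 of 8 ERAD and translocon genes. Flox/flox replicate 3 was highest for 2 and 3 of these. How often either holds over all genes was not counted.

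**Figure D3:**
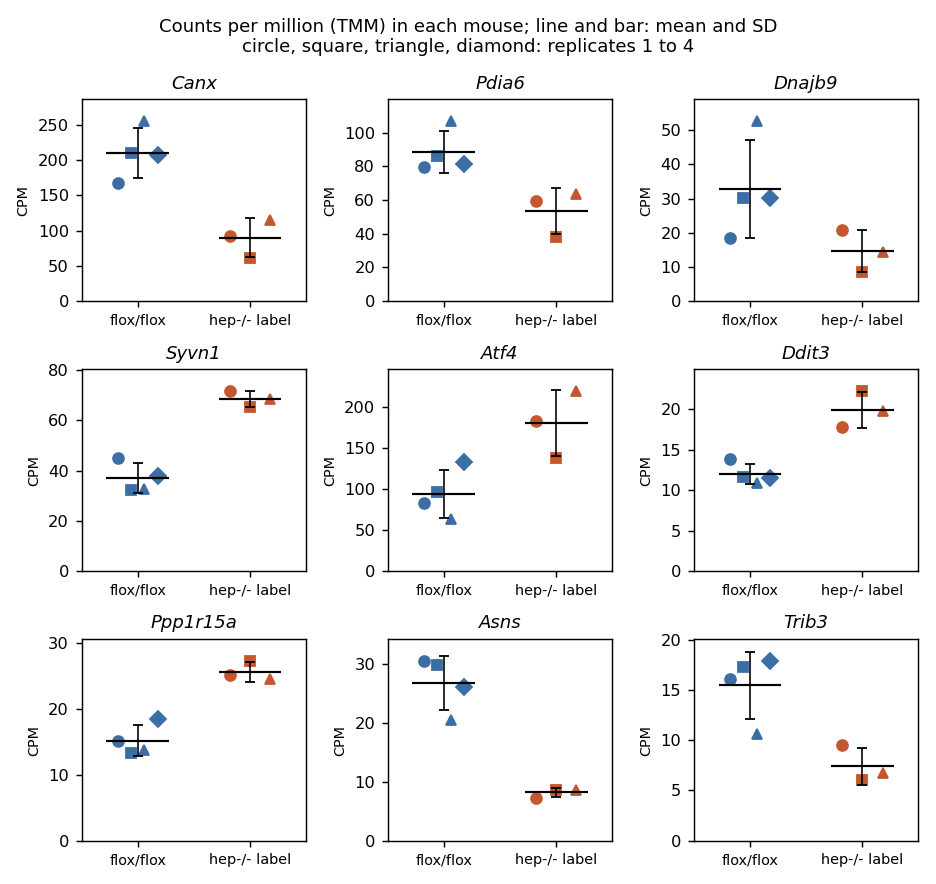
CPM of the 9 called genes in each mouse (line and bar, mean and SD; flox/flox, n = 4; labelled hep-/-, n = 3; each axis starts at 0). The groups are apart for 8 of the 9, and for Dnajb9 the hep-/- labelled value of 20.8 CPM exceeds the lowest control at 18.5 CPM.

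Of the 6 sensors and transcription factors, Atf4 was the one called. It read 82.8, 96.6, 63.4 and 132 CPM in flox/flox livers and 183, 138 and 219 CPM in livers labelled hep-/-, where every value exceeded every control (log2 fold change 0.94, SE 0.26, edgeR adjusted p = 0.0321). The closest values were 132 and 138 CPM. With mice left out in turn, Atf4 remained called only without flox/flox replicate 4, at a log2 fold change of 1.15, or without hep-/- labelled replicate 2. It is ATF4 protein that acts on targets, and mRNA counts do not measure its translation.

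Transcripts of the 3 sensors themselves were not called. Ern1 read 25.9, 24.2, 25.6 and 19.5 CPM against 25, 23.4 and 30.4 CPM (log2 fold change 0.14, edgeR adjusted p = 0.621). Eif2ak3 had the largest adjusted p of this list, at 18.1, 18.8, 23.7 and 18.1 CPM against 21.4, 17.0 and 19.3 CPM (log2 fold change -0.03, edgeR adjusted p = 0.919). In both genes the hep-/- labelled values fell in and around the range of the controls. Atf6 was at 43.0, 55.9, 59.3 and 41.9 CPM against 39.5, 23.4 and 50.5 CPM (log2 fold change -0.40, edgeR adjusted p = 0.294). Creb3l3 was the steadiest of the list, at 347, 332, 325 and 367 CPM against 318, 326 and 316 CPM (log2 fold change -0.10, edgeR adjusted p = 0.731).

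Of these 6 genes Xbp1 had the widest spread among the livers labelled hep-/-, with a coefficient of variation of 50.6%. It read 132, 126, 114 and 136 CPM in flox/flox livers, and 69.1, 66.4 and 152 CPM in hep-/- labelled replicates 1, 2 and 3. In CPM, replicates 1 and 2 were below every control and replicate 3 above every control, as was B4galt1 in the same livers. In FPKM, replicate 3 was within the range of the controls for Xbp1 (59.3 against 54.5 to 67.1 FPKM) and just below them for B4galt1. Over the group the log2 fold change was -0.41 (SE 0.28, edgeR adjusted p = 0.334). Without replicate 3 it was -0.91 and called. Gene counts do not separate spliced from unspliced Xbp1 mRNA.

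The 8 ATF4 targets went both ways, with 2 lower and 2 higher, against 7.83% and 8.0% of all genes tested, and a median log2 fold change of -0.18, which ran from -0.42 without hep-/- labelled replicate 1 to -0.018 without hep-/- labelled replicate 2. ATF4 binds the C/EBP-ATF response element (CARE), searched here as TGATG, any base, then AA. This was found in 4 of the 8 (Asns, Atf3, Chac1 and Trib3) and in Herpud1 among the ERAD genes, against 4.51% of all genes with a window. Both lower genes, Asns and Trib3, had it, while Ddit3 and Ppp1r15a, which were higher, did not have these letters in the window. The sequences of Asns and Trib3 are shown for that reason, with those of Atf3 and Chac1, which were not called, beside them. The element is in capitals, and it reads on the opposite strand in all but Asns, for which all 250 bases before the start are given. In Trib3 it lies just after the start.
Trib3, chr2:152344029-152344056, minus strand: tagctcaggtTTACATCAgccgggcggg
Atf3, chr1:191183426-191183453, minus strand: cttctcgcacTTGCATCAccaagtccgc
Chac1, chr2:119351039-119351066, plus strand: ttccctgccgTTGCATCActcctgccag
Asns, chr6:7693210-7693459, minus strand: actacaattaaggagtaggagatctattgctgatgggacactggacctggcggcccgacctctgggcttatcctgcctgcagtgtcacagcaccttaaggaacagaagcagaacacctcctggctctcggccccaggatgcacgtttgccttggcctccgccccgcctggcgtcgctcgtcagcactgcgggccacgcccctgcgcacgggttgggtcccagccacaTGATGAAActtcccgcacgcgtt

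**Figure D4:**
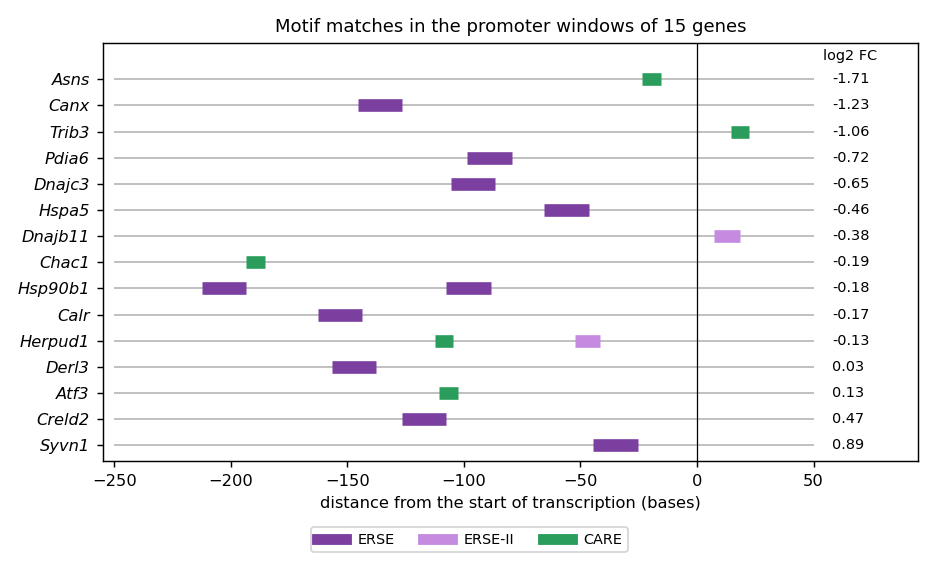
Positions of ERSE, ERSE-II and CARE matches in the promoter windows of the 15 genes that hold one, as distance from the start in bases, with the log2 fold change of each gene (labelled hep-/- minus flox/flox) at the right. Genes are ordered by fold change, from -1.71 for Asns to 0.89 for Syvn1, and ERSE matches appear along most of that order.

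Asns had the largest change of all 37 genes. It encodes asparagine synthetase and is a standard readout of ATF4. Its levels were 30.6, 29.9, 20.6 and 26.2 CPM in flox/flox livers and 7.34, 8.72 and 8.62 CPM in livers labelled hep-/-. The highest of the latter was below the lowest of the former by more than the spread within either group, and Asns was 3.26-fold lower (log2 fold change -1.71, SE 0.21, edgeR adjusted p = 0.00219). Trib3, a pseudokinase induced by ATF4 and CHOP that dampens both, read 16.1, 17.3, 10.6 and 17.9 CPM against 9.51, 6.03 and 6.71 CPM (log2 fold change -1.06, SE 0.25, edgeR adjusted p = 0.0196). The groups were apart, but the lowest control and the highest hep-/- labelled liver were close, and the call was lost without flox/flox replicate 2 or without hep-/- labelled replicate 2 or 3.

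Ddit3, which encodes CHOP, rose from 13.9, 11.7, 10.9 and 11.5 CPM to 17.8, 22.3 and 19.8 CPM (log2 fold change 0.73, SE 0.18, edgeR adjusted p = 0.0238). Ppp1r15a encodes GADD34, the subunit that directs phosphatase to eIF2, and rose from 15.2, 13.4, 13.8 and 18.5 CPM to 25.2, 27.4 and 24.5 CPM (log2 fold change 0.76, SE 0.18, edgeR adjusted p = 0.0200). For both genes every liver labelled hep-/- lay above every control. Ddit3 lost the call without flox/flox replicate 2, 3 or 4 or hep-/- labelled replicate 2, and Ppp1r15a without replicate 2 of either group. On log2(FPKM + 1) neither was called, at 0.52 for Ddit3 and 0.57 for Ppp1r15a. A share of 3.97% of the exonic bases of Ddit3 overlaps Mars on the opposite strand.

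The other 4 ATF4 targets were not called. Chac1, which breaks down glutathione, was scarcely expressed, at 0.621, 0.954, 0.937 and 0.848 CPM against 1.30, 0.513 and 0.395 CPM (log2 fold change -0.19, edgeR adjusted p = 0.828). Sesn2 had a log2 fold change of -0.69 (edgeR adjusted p = 0.118) with all livers labelled hep-/- below all controls. Atf3 and Atf5, themselves transcription factors, were at 0.13 and -0.18.

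In the ERAD and translocon list Syvn1 was the one gene called. It encodes HRD1, the ubiquitin ligase at the centre of ERAD, and read 45.2, 32.3, 32.6 and 37.7 CPM in flox/flox livers and 71.8, 65.4 and 68.4 CPM in livers labelled hep-/-. Every hep-/- labelled value was well above the highest control (log2 fold change 0.89, SE 0.18, edgeR adjusted p = 0.0102). Sel1l, the partner that steadies HRD1, did not follow it, with a log2 fold change of -0.32 (edgeR adjusted p = 0.248) and all 3 livers labelled hep-/- below the controls. Derl1, a channel component of the same complex, read 116, 125, 97.6 and 118 CPM against 66.0, 54.6 and 99.1 CPM. Replicate 3 alone reached the controls (log2 fold change -0.64, SE 0.23, edgeR adjusted p = 0.0743), and without it Derl1 was called at -0.93. Derl3, its scarce relative, read 0.644, 0.678, 0.633 and 0.904 CPM against 0.357, 0.875 and 0.954 CPM (log2 fold change 0.03, edgeR adjusted p = 0.974). Herpud1, Edem1, Derl2 and the translocon subunit gene Sec61b ranged from -0.41 to 0.13.

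Set against each other per mouse, the chaperones were lower in livers labelled hep-/- without overlap, while the ATF4 targets, and the difference between the lists, overlapped between the groups. For each mouse the mean log2 CPM of a list was taken relative to the flox/flox mean. The chaperones stood at -0.21, -0.04, 0.345 and -0.09 in flox/flox replicates 1 to 4 and at -0.33, -0.82 and -0.35 in hep-/- labelled replicates 1 to 3, apart from each other. The ATF4 targets stood at 0.007, 0.018, -0.14 and 0.11 against -0.13, -0.36 and -0.35, where hep-/- labelled replicate 1 overlapped flox/flox replicate 3 by a narrow margin. On average both lists were lower in livers labelled hep-/- (-0.50 for the chaperones, -0.28 for the ATF4 targets). Chaperones minus ATF4 targets gave -0.22, -0.06, 0.48 and -0.20 in flox/flox livers and -0.195, -0.46 and -0.002 in livers labelled hep-/-, with overlapping groups. Within the lists the named genes went apart, with Asns and Trib3 lower but Ddit3 and Ppp1r15a higher, and with Canx lower but Hsp90b1 at -0.18.

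Flox/flox replicate 3 stood apart in several of these values. It had the highest chaperone level, the lowest Atf4, Asns, Trib3 and Atf5 of its group, the smallest mitochondrial share at 3.88%, and the largest macrophage marker sum at 3434 CPM. The 6 endothelial markers summed to 290.9 CPM there, against 72.1 to 111.5 CPM in the other controls and 104 to 121 CPM in livers labelled hep-/-. Among the livers labelled hep-/-, replicate 2, the lowest in chaperones, had the largest sum of the 6 cholangiocyte markers, at 874 CPM against 415 and 259 CPM in replicates 1 and 3 and 254 to 657.5 CPM in controls, and the smallest hepatocyte marker sum of its group. Without flox/flox replicate 3 the chaperone median was -0.36 and 14 of 15 fold changes were still negative. Of the 12 macrophage markers Lyz2 (log2 fold change -2.15), Gpnmb (-1.72) and Adgre1 (-1.88) were among those that fell, while Timd4 and Cd163 averaged under 1 CPM in both groups and none was at 0. Plasma cells have an extensive ER, and their 3 tested markers summed to 14.8 to 27.5 CPM in flox/flox livers and 20.3 to 49.9 CPM in livers labelled hep-/-, with a mean log2 level of the 3 that lay above all controls in each of the latter. The part of macrophage, endothelial, cholangiocyte and plasma cell content and of the mitochondrial share in the chaperone values was not tested.

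**Figure D5:**
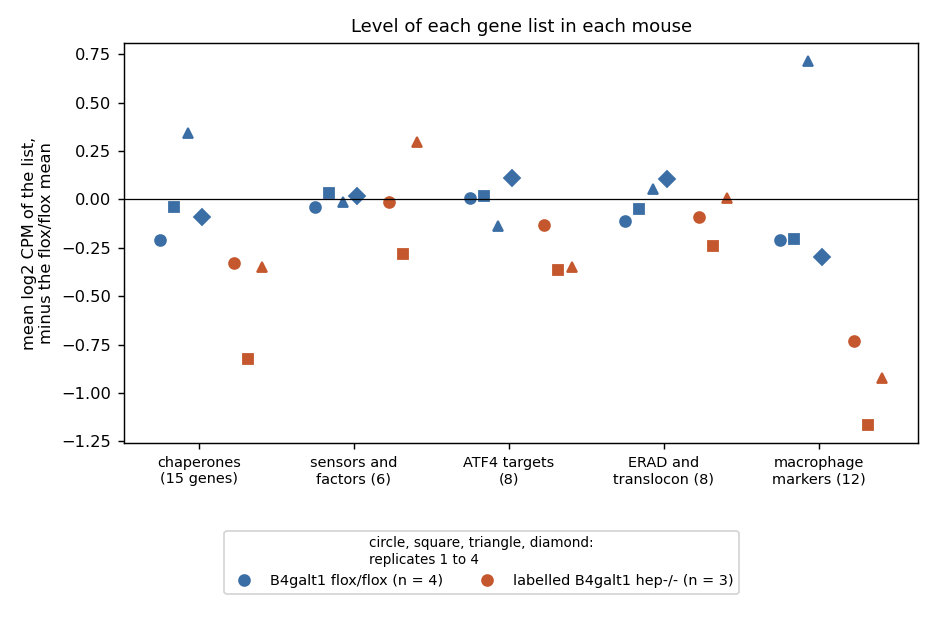
Mean log2 CPM of each list in each mouse, relative to the flox/flox mean (blue, flox/flox, n = 4; orange, labelled hep-/-, n = 3; shapes, replicate numbers). Chaperones and macrophage markers have all hep-/- labelled livers below all controls, and in both the highest point is flox/flox replicate 3; other translocon genes and other folding enzymes, not plotted, also did not overlap, by narrow margins, nor did plasma cell markers, whose mean level lay above the controls.

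Other genes of the pathway were taken from lists of the same roles, and 14 of the 139 tested were lower and 8 higher, with a median log2 fold change of -0.16. Over all genes tested 7.83% were lower and 8.0% higher, so both counts are near the background share, and the genes named next are described singly. Of 23 further folding enzymes 2 fell, Sil1, which exchanges nucleotide on BiP (-0.76), and Mogs, the glucosidase that starts N-glycan trimming (-0.74), and the prolyl isomerase gene Fkbp14 rose (1.25). Of 19 translocon and targeting genes 3 fell and 1 rose. Spcs1 of the signal peptidase showed the largest change, from 49.1, 63.9, 77.7 and 56.0 CPM to 8.77, 8.14 and 20.1 CPM (log2 fold change -2.32, SE 0.33, edgeR adjusted p = 0.00301). Srpr of the signal recognition particle receptor was at -1.09 and the channel paralogue Sec61a2 at 1.18, while Srp54a, lower as well and named outside the rule because it completes the count of 3, has near-identical copies and is uncertain. Among 20 other ERAD genes 2 fell, Vcp, the ATPase that pulls substrates from the membrane (-0.90), and its cofactor Nploc4 (-0.79).

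Of 38 other ATF4 targets 2 fell and 3 rose, again in both directions. The tRNA synthetase genes alone were divided, with Iars (-1.13) and Gars (-0.65) lower and Cars (0.78) higher. The amino acid transporter gene Slc1a5 (1.32) and the transcription factor gene Cebpb (0.94) rose. Among 26 other sensors and regulators 4 fell and 2 rose. Rtcb, the ligase that joins the Xbp1 exons cut by IRE1, went from 63.9, 66.2, 74.1 and 58.4 CPM to 27.4, 21.3 and 35.4 CPM (log2 fold change -1.23, SE 0.21, edgeR adjusted p = 0.00581). Tmbim6 (-0.81) and Bak1 (-0.80), whose products bear on cell death at the ER, were lower, and Bax (0.69) was higher. Eif2ak4, which encodes GCN2, the eIF2 kinase that senses uncharged tRNA, rose (0.89), whereas Eif2ak1, the heme-regulated eIF2 kinase, named here after its values were seen, fell (-0.60). Of 8 CREBH targets 1 fell, Crp (-1.10), and of 6 mRNAs known to be cut by IRE1, 1 rose, Bloc1s1 (0.76).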

How the data were processed

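Total liver RNA was extracted with TRIzol, libraries were made with a VAHTS Universal V6 kit, and OE Biotech sequenced them. The authors deposited whole-number counts per gene and mouse, not normalized, and FPKM values that the authors made from them. For all 13374 genes that had 10 counts or more in each library, FPKM kept a constant ratio to count over library total across mice, within 1%. The gene lengths behind the FPKM values were not checked. The submitters' processing notes list fastp, HISAT2, HTSeq, DESeq2, R 3.2.0 and GRCm39, without roles. Their annotation and strand setting are not given in the sources used here.

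Counts were filtered with filterByExpr (minimum count 10, minimum total 15), scaled by TMM, and the groups were compared by the quasi-likelihood F-test of edgeR 4.0.16 (R 4.3.3) without covariates, with Benjamini-Hochberg adjustment over 15179 genes. CPM are TMM-normalized, and SE is the log2 fold change over the root of F. Counting error was small (3 counts are 0.0690 to 0.0987 CPM), while the common biological coefficient of variation was 0.301. The 21 library pairs differed beyond sampling noise. That replicates are separate mice rests on the labels, and p-values weigh the difference between groups against the spread between these mice.

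The 37 genes and all lists were chosen with earlier results of these data known. Full values were given for called genes, for pathway nodes (Hspa5, Hsp90b1, Ern1, Eif2ak3, Atf6, Xbp1, Atf4, Ddit3, Creb3l3), for the 2 largest changes and for the extreme adjusted p-values of each list. From other lists, up to 5 called genes each were named if their mean CPM was at least 0.5 of the median over genes tested. As alternatives, RLE or upper-quartile scaling, other filters, DESeq2 1.42.0, voom with sample weights, limma 3.58.1 on FPKM with a pseudocount of 1 or 0.1 before log2, other fold thresholds, no mitochondrial genes, a replicate block and leaving out each mouse were tried. A pseudocount understates the change of low genes. Of plasma cell, stellate cell, cholangiocyte and endothelial markers, Pou2af1 was higher (1.32) and Kdr lower (-1.33), and of 8 plasma cell markers 3 were tested. Some genes were listed under both an older and a newer symbol. Chow-fed mice were not analysed here.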

Additional observations from a re-analysis of the deposited data

Results flagged for a closer look

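In the 4 flox/flox livers, 1 mouse was far from the others by Dixon's test for 4 of the 37 genes, and chance marks about 1 gene in 20. Flox/flox replicate 3 stood out for Sdf2l1 (24.6 CPM, the others 8.53 to 10.2 CPM), for Manf (63.2 CPM, the others 32.5 to 35.4 CPM) and for Eif2ak3 (23.7 CPM, the others 18.1 to 18.8 CPM). Flox/flox replicate 4 stood out for Derl3 (0.904 CPM, the others 0.633 to 0.678 CPM). Sdf2l1 and Manf belong to the chaperone list, in which replicate 3 was highest for 13 of 15 genes. The 3 livers labelled hep-/- are too few for this test.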

How the results depend on the processing

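No called gene changed direction under any alternative. Asns (log2 fold change -1.82 to -1.46), Canx (-1.46 to -1.01) and Syvn1 (0.72 to 1.0) were called in all 18 refits, but a fold threshold of 1 on the log2 scale drops Syvn1. Beside 5 lower and 4 higher genes, limma gave 8 and 2 of 35 tested on log2(FPKM + 1), against 15.9% and 5.14% of all genes. On log2(FPKM + 0.1), where the median of all genes was -0.18, it gave 8 and 3 of 35, against 17.8% and 5.51%. Over all genes above 0 it gave 6 and 1, against 4.74% and 1.05%. Voom gave 8 and 4 (9.53% and 10.2% of all genes) and DESeq2 7 and 4 (10.2% and 11.2%). The fold threshold of 1 gave 4 and 0 (3.78% and 5.09%). Leaving out each mouse gave 2 to 7 lower and 1 to 3 higher genes, against 3.16% to 7.51% and 2.74% to 8.66% of all genes. The chaperone median was then -0.67 to -0.28 and that of the ATF4 targets -0.42 to -0.018, and 14 of 15 chaperones stayed negative in every alternative. RLE and upper-quartile normalization, both other count filters and leaving out mitochondrial genes gave 5 and 4 again. Of all genes 5.93% to 8.88% were then lower and 6.35% to 8.94% higher. With the replicate number as a block, 2 genes were lower and 2 higher, against 3.92% and 4.22% of all genes. Same-numbered mice are different animals whose deviations correlated at -0.337, -0.034 and 0.078, so the numbers were not treated as pairs. Genes not called whose sign changed were Atf3, Atf5, Chac1, Derl3, Eif2ak3 and Herpud1. The causes were not tested. Depth limits only Chac1 and Derl3, under 1.5 CPM in every mouse.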
